A study of Homo sapiens with 6 samples.

Results

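Glycolysis and the pentose phosphate pathway were followed step by step in MDA-MB-231 cells, through 32 listed genes that run from glucose import to lactate export, with the switch into mitochondria and the pentose phosphate branch. A gene was taken in when a probe of the array carried the accession of one of its RefSeq transcripts. Of the 32 genes, 31 had such a probe, 40 probes in all, out of 21743 genes and 50599 probes on the array. ALDOA was not analysed here. MDA-MB-231 is a single line of triple-negative breast cancer cells with mesenchymal features. The cells were reverse transfected with a precursor of hsa-miR-205-5p, a precursor of hsa-miR-214-3p or a scrambled negative control precursor, each at 30 nM, and RNA was collected at 72 h. Each of the 3 groups had 2 one-color arrays, and none of the sources used here says whether the 2 came from separate cultures, so p-values measure the spread between these samples, which may be technical. The study raised both miRNAs to learn which transcripts respond to each of them.

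Glycolysis splits a glucose molecule into pyruvate. Its preparatory steps spend ATP to phosphorylate and cleave the sugar, and its payoff steps, from GAPDH to pyruvate kinase, return ATP and NADH. Breast cancer cells often run it at a high rate and export the lactate, while the pentose phosphate branch takes glucose phosphate aside to make NADPH and ribose for nucleotides. A miRNA pairs with transcripts mainly through its seed, and transcripts that carry a matching site tend to be lost. The mature sequences of both miRNAs, as RefSeq gives them for GRCh38.p14, are shown since they are what was varied between the groups, with the seed (bases 2 to 8) in capitals.
hsa-miR-205-5p: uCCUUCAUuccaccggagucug
hsa-miR-214-3p: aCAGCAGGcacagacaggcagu
The first lies at chr1:209432166-209432187 on the plus strand and the second at chr1:172138816-172138837 on the minus strand. The seeds differ, so the miRNAs do not belong to one seed family. No seed sites were searched in the members, because transcript sequences were not used here.

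Values are normalized log2 signals, that is log2 of the background-subtracted intensity minus the 75th percentile of the array, so that a difference of 1 is a 2-fold change. They compare a probe between arrays and not one gene with another. Between 35.4% and 42.2% of the spots of an array were well above background, and 0 were saturated. All 6 arrays lay on 1 slide. Between 32 and 36 of the 40 member probes were well above background on an array. The 2 scrambled control arrays stood further apart than those of the other groups. Their signals differed by more than 2 on the log2 scale for 1.17% of all genes, against 0.793% with hsa-miR-205-5p and 0.15% with hsa-miR-214-3p. Among the members tested this was so only of LDHA in the control. VIM and CD44, which mark this line, were well above background on all 6 arrays, while ESR1, PGR, CD3E and HBB, markers of luminal breast, T and red blood cells, were so on 0. Of the other markers, GATA3 and CDH1 were above background on 6 arrays, PECAM1 on 3 and PTPRC on 2. CDH1 (E-cadherin) rose by 1.96 on the log2 scale with hsa-miR-205-5p (adjusted p = 0.008, limma) and PECAM1 was at least 2.26-fold lower, though its probe passed the filter on dim probes only through the control arrays, where it was highest. The part of these 2 markers in the results below was not tested. In RNA from whole cultures, fewer cells of a kind and less RNA per cell cannot be told apart.

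With hsa-miR-205-5p, 7 of the 29 members tested fell at least 2-fold against the scrambled control: ALDOC, GAPDH, ENO1, ENO2 and PKM of glycolysis and PGD and RPIA of the pentose phosphate pathway. Of all 11974 genes tested, 7.98% were called lower and 4.78% higher in this comparison. No member was called higher, also at an unadjusted p in limma or the methods' t-test (0 members in each). A further 5 members passed the adjusted p but stayed within 2-fold. With hsa-miR-214-3p, 2 of 29 members fell, PFKFB2 and RPIA, and 0 were higher. By the same rule 2.03% of all genes were called lower and 1.09% higher. At an unadjusted p in limma, 0 members were higher as well. Set directly against each other, 9 members were lower and 1 was higher with hsa-miR-205-5p than with hsa-miR-214-3p, where 11.3% of all genes were called lower and 9.18% higher. A call needed an adjusted p under 0.05 in limma, fitted over all 6 arrays and adjusted over all kept probes, and at least a 2-fold change.

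The median log2 fold change over the 29 members was -0.34 with hsa-miR-205-5p, beside 0.08 over all genes tested. It moved to -0.055 without hsa-miR-205-5p replicate 2, to -0.045 without scrambled control replicate 1 and to -0.093 with probes kept only where every array was well above background. The member median was 0.24 with hsa-miR-214-3p, beside -0.01 over all genes. Between the precursors it was -0.09, beside 0.12 over all genes. These medians describe the list and were not tested. The comparisons of the 2 precursors with the control use the same control arrays and so are not independent. Single arrays decided some counts: without hsa-miR-205-5p replicate 2, no member and no gene passed the adjusted p (smallest adjusted p 0.056 in limma, with 7 members lower and 2 higher at an unadjusted p), and without scrambled control replicate 1, 9 members were lower and 1 was higher. The 2 calls with hsa-miR-214-3p were lost without any one array other than scrambled control replicate 2, and without that array 2 members were lower and 2 higher.

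**Figure D1:**
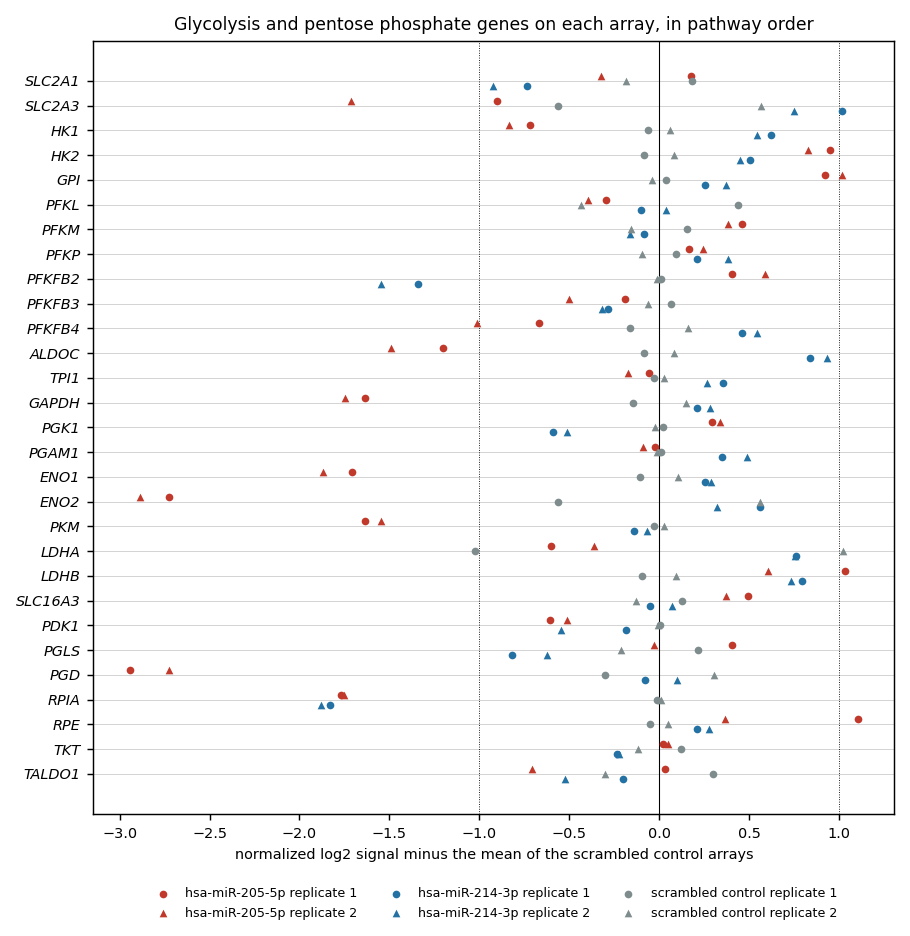
Normalized log2 signal of the 29 tested members on each of the 6 arrays, minus the mean of the 2 scrambled control arrays, listed in pathway order. Points are single arrays (circle replicate 1, triangle replicate 2) and dotted lines mark 2-fold. Both hsa-miR-205-5p arrays (red) lie more than 1 below the control mean for ALDOC, GAPDH, ENO1, ENO2, PKM, PGD and RPIA, and the hsa-miR-214-3p arrays (blue) do so for PFKFB2 and RPIA.

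Glucose enters the cell through the facilitative transporters SLC2A1 (GLUT1) and SLC2A3 (GLUT3), and neither was called against the scrambled control with either precursor. SLC2A3 read -1.58 and -2.39 with hsa-miR-205-5p, 0.34 and 0.07 with hsa-miR-214-3p, and -1.24 and -0.11 in the control. Neither hsa-miR-205-5p array showed it well above background. Against hsa-miR-214-3p it was at least 3.28-fold lower with hsa-miR-205-5p (adjusted p = 0.0203, limma). SLC2A1 read 5.20 and 4.70 with hsa-miR-205-5p, 4.29 and 4.10 with hsa-miR-214-3p, and 5.20 and 4.84 in the control. Both hsa-miR-214-3p arrays thus lay below all others, but the difference from the control, -0.83 ± 0.24 (SE), had an adjusted p of 0.134 in limma.

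The hexokinases trap glucose by phosphorylating it, HK1 in most cells and HK2 in rapidly growing ones. HK1 read 2.96 and 2.84 with hsa-miR-205-5p, 4.30 and 4.23 with hsa-miR-214-3p, and 3.61 and 3.74 in the control. The 3 groups did not overlap, with hsa-miR-205-5p lowest and hsa-miR-214-3p highest. HK1 was lower by 1.36 ± 0.16 (SE, log2 scale; adjusted p = 0.00521, limma) with hsa-miR-205-5p than with hsa-miR-214-3p, a 2.57-fold difference. Against the control its difference with hsa-miR-205-5p, -0.78 ± 0.16, passed the adjusted p (0.028, limma) within 2-fold. HK2 read 4.37 and 4.25 with hsa-miR-205-5p, 3.93 and 3.87 with hsa-miR-214-3p, and 3.34 and 3.51 in the control. Its order differed from that of HK1: both precursors lay above the control, by 0.89 ± 0.16 (adjusted p = 0.0214, limma, within 2-fold) with hsa-miR-205-5p and by 0.48 ± 0.16 (adjusted p = 0.166) with hsa-miR-214-3p.

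GPI, which turns glucose phosphate into fructose phosphate, read 7.95 and 8.05 with hsa-miR-205-5p, 7.29 and 7.40 with hsa-miR-214-3p, and 7.07 and 6.99 in the control. The groups did not overlap. The difference with hsa-miR-205-5p, 0.97 ± 0.15 (SE), was the highest of the 29 members and lay just within 2-fold (1.96-fold; adjusted p = 0.0161, limma). The phosphofructokinases PFKL, PFKM and PFKP carry out the committed step, and none was called in any comparison. Their differences from the control lay between -0.35 and 0.42 with hsa-miR-205-5p and between -0.12 and 0.30 with hsa-miR-214-3p.

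The PFKFB enzymes make and break down the sugar bisphosphate that activates phosphofructokinase, and their 3 measured genes behaved differently. PFKFB2 read 1.80 and 1.99 with hsa-miR-205-5p, 0.06 and -0.15 with hsa-miR-214-3p, and 1.41 and 1.39 in the control. Both hsa-miR-214-3p arrays lay below all others. It fell by 1.44 ± 0.17 (SE) on the log2 scale with hsa-miR-214-3p (2.72-fold; adjusted p = 0.0315, limma) and was 3.84-fold higher with hsa-miR-205-5p than with hsa-miR-214-3p (log2 difference 1.94 ± 0.17 and adjusted p = 0.00397, limma). A dimmer probe for another PFKFB2 transcript is described with the probe pairs below. PFKFB4 read 0.85 and 0.51 with hsa-miR-205-5p, 1.98 and 2.06 with hsa-miR-214-3p, and 1.36 and 1.68 in the control. As for HK1, the control lay between the precursors, and PFKFB4 was 2.53-fold lower with hsa-miR-205-5p than with hsa-miR-214-3p (log2 difference -1.34 ± 0.21, adjusted p = 0.00969, limma). Against the control it differed by -0.84 ± 0.21 (adjusted p = 0.0445), within 2-fold. PFKFB3, at 2.57 and 2.26 with hsa-miR-205-5p, 2.47 and 2.44 with hsa-miR-214-3p, and 2.82 and 2.70 in the control, was not called.

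Aldolase cleaves the sugar bisphosphate into triose phosphates. ALDOC, the aldolase best known from brain, read -1.42 and -1.70 with hsa-miR-205-5p, 0.62 and 0.72 with hsa-miR-214-3p, and -0.30 and -0.13 in the control. The groups did not overlap and hsa-miR-214-3p was the highest. ALDOC fell by 1.34 ± 0.18 (SE) on the log2 scale with hsa-miR-205-5p (2.54-fold; adjusted p = 0.0119, limma) and was 4.69-fold lower there than with hsa-miR-214-3p (adjusted p = 0.00384). It was dim, with only 1 hsa-miR-205-5p array well above background, and with normexp background correction its difference from the control shrank to -0.28 and was no longer called. TPI1, which interconverts the triose phosphates, was not called: its differences were -0.11 (95% interval -0.50 to 0.27) with hsa-miR-205-5p and 0.31 (-0.07 to 0.70) with hsa-miR-214-3p. Over the 8 preparatory genes tested from hexokinase to TPI1, 1 was lower and 0 were higher with hsa-miR-205-5p, with a median difference of 0.05.

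Of the 6 payoff genes from GAPDH to pyruvate kinase, 4 fell with hsa-miR-205-5p and the median difference was -1.64, while 0 of 6 were called with hsa-miR-214-3p and their median was 0.26. GAPDH, which oxidizes triose phosphate and is often used as a reference transcript, read 7.59 and 7.48 with hsa-miR-205-5p, 9.43 and 9.51 with hsa-miR-214-3p, and 9.07 and 9.37 in the control. Both hsa-miR-205-5p arrays lay well below the other 4. GAPDH fell by 1.69 ± 0.18 (SE) on the log2 scale against the control (3.23-fold; 95% interval -2.13 to -1.25; adjusted p = 0.00851, limma) and by 1.94 ± 0.18 against hsa-miR-214-3p (3.83-fold; adjusted p = 0.00397). With hsa-miR-214-3p it differed from the control by 0.25 (95% interval -0.19 to 0.69).

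The enolases make phosphoenolpyruvate, ENO1 in most tissues and ENO2 above all in neurons. ENO1 read 6.65 and 6.49 with hsa-miR-205-5p, 8.61 and 8.65 with hsa-miR-214-3p, and 8.26 and 8.46 in the control. ENO2 read -0.08 and -0.23 with hsa-miR-205-5p, 3.21 and 2.97 with hsa-miR-214-3p, and 2.09 and 3.21 in the control. For both enolases the hsa-miR-205-5p arrays lay below all others, and for ENO2 control replicate 2 lay with the hsa-miR-214-3p arrays and replicate 1 below them. ENO1 fell by 1.79 ± 0.17 (SE) on the log2 scale with hsa-miR-205-5p against the control (3.45-fold; adjusted p = 0.008, limma), and ENO2 fell by 2.81 ± 0.38 (6.99-fold; adjusted p = 0.0122). Against hsa-miR-214-3p the differences were 4.17-fold for ENO1 (adjusted p = 0.00384) and 9.51-fold for ENO2 (adjusted p = 0.00536), the latter the largest of the 29 members by the brightest probe of each.

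PKM encodes a pyruvate kinase, and its isoforms were not told apart here. It read 6.21 and 6.29 with hsa-miR-205-5p, 7.70 and 7.77 with hsa-miR-214-3p, and 7.81 and 7.87 in the control. Both hsa-miR-205-5p arrays were again lowest. PKM fell by 1.59 ± 0.15 (SE) on the log2 scale against the control (3.01-fold; adjusted p = 0.008, limma) and was 2.80-fold lower than with hsa-miR-214-3p (adjusted p = 0.00431). Neither of the other payoff genes, PGK1 and PGAM1, was called. PGK1, which makes the first ATP of the payoff phase, read 8.40 and 8.44 with hsa-miR-205-5p, 7.52 and 7.59 with hsa-miR-214-3p, and 8.13 and 8.08 in the control. It thus had the opposite order to its neighbours, lowest with hsa-miR-214-3p, and the difference between the precursors, 0.87 ± 0.15 (adjusted p = 0.0126, limma), lay within 2-fold. The mutase PGAM1 read 7.54 and 7.47 with hsa-miR-205-5p, 7.91 and 8.06 with hsa-miR-214-3p, and 7.58 and 7.55 in the control, a difference of -0.06 (95% interval -0.44 to 0.33) with hsa-miR-205-5p by its brighter probe.

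**Figure D2:**
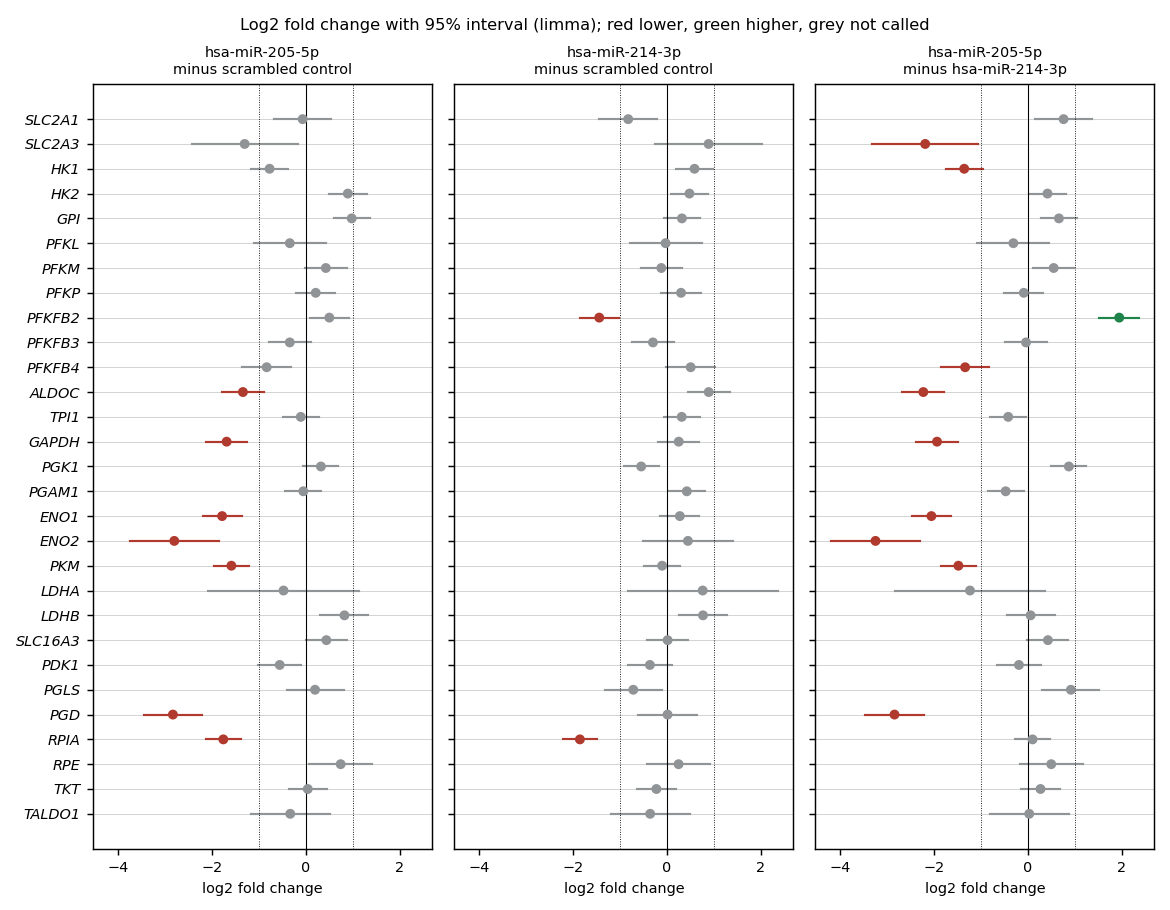
Log2 fold change of each tested member with its 95% interval from limma, in pathway order, for each precursor against the scrambled control and for the precursors against each other. Red marks members called lower, green higher and grey those not called; dotted lines mark 2-fold. The members called with hsa-miR-205-5p against the control are ALDOC, GAPDH, ENO1, ENO2, PKM, PGD and RPIA, while TPI1, PGK1 and PGAM1 are at -0.11, 0.32 and -0.06.

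Lactate dehydrogenase turns pyruvate into lactate, with LDHA favouring lactate and LDHB pyruvate. LDHA read 5.75 and 5.99 with hsa-miR-205-5p, 7.11 and 7.10 with hsa-miR-214-3p, and 5.33 and 7.37 in the control. The control arrays differed by 2.04 and enclosed all 4 others, so neither precursor could be told from the control (differences -0.48 ± 0.64 and 0.76 ± 0.64, SE). With 1 control array left out, the call depended on which: without scrambled control replicate 1, LDHA passed as lower under hsa-miR-205-5p, and without replicate 2 it passed as higher under hsa-miR-214-3p. These fits drop the gap between the controls and assume that the lone control array varies like the other groups, so they do not test LDHA. The test between the precursors gave -1.24 ± 0.64 (adjusted p = 0.185, limma), and LDHA was called lower there in the fit on those 4 arrays alone. LDHB read 8.87 and 8.45 with hsa-miR-205-5p, 8.64 and 8.58 with hsa-miR-214-3p, and 7.75 and 7.94 in the control. Both precursors lay above the control, by 0.82 ± 0.20 (adjusted p = 0.0465, limma, within 2-fold) and 0.76 ± 0.20 (adjusted p = 0.112).

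Lactate leaves through monocarboxylate transporters. SLC16A3 (MCT4), the exporter of highly glycolytic cells, lay between 9.89 and 10.51 on the 6 arrays and was not called. SLC16A1 (MCT1) was well above background on 1 array, hsa-miR-205-5p replicate 2, where it read 0.93, and lay between -4.60 and -3.85 on the other 5, so it was not tested. The pyruvate dehydrogenase kinases hold back pyruvate dehydrogenase and so the use of pyruvate in the mitochondria. PDK1 was dim, between -1.65 and -1.04, and differed from the control by -0.56 (95% interval -1.02 to -0.10; adjusted p = 0.0888, limma) with hsa-miR-205-5p. It passed the filter on dim probes only through the control, its highest group, which favours lower values in the others. PDK3 was well above background on 0 arrays and was not tested.

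In the pentose phosphate pathway, 2 of 6 genes fell with hsa-miR-205-5p and 1 with hsa-miR-214-3p. PGD makes NADPH and ribulose phosphate in the oxidative branch. It read 1.71 and 1.93 with hsa-miR-205-5p, 4.57 and 4.75 with hsa-miR-214-3p, and 4.35 and 4.95 in the control. Both hsa-miR-205-5p arrays lay far below the other 4, which overlapped. PGD fell by 2.83 ± 0.25 (SE) on the log2 scale (7.13-fold; 95% interval -3.46 to -2.21; adjusted p = 0.008, limma), next to ENO2 at 6.99-fold, and was 7.18-fold lower than with hsa-miR-214-3p (adjusted p = 0.00397). PGLS, the lactonase just upstream, read 8.66 and 8.22 with hsa-miR-205-5p, 7.43 and 7.63 with hsa-miR-214-3p, and 8.46 and 8.04 in the control. It was lowest with hsa-miR-214-3p, and the difference between the precursors, 0.91 ± 0.24, stayed within 2-fold (adjusted p = 0.0398).

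RPIA isomerizes ribulose phosphate to the ribose phosphate of nucleotides, and it was the only one of the 29 members called lower with both precursors. It read 3.22 and 3.24 with hsa-miR-205-5p, 3.16 and 3.11 with hsa-miR-214-3p, and 4.98 and 5.00 in the control. The 4 precursor arrays lay together, apart from both control arrays. RPIA fell by 1.76 ± 0.15 (SE) on the log2 scale with hsa-miR-205-5p (3.39-fold; adjusted p = 0.008, limma) and by 1.86 ± 0.15 with hsa-miR-214-3p (3.62-fold; adjusted p = 0.0251). The precursors differed from each other by 0.09 (95% interval -0.27 to 0.46). Both falls were measured against the same 2 control arrays. The other genes of the non-oxidative branch are the epimerase RPE, and TKT and TALDO1, which shuffle carbons between sugar phosphates. None of them was called. RPE read 1.38 and 0.64 with hsa-miR-205-5p, 0.49 and 0.56 with hsa-miR-214-3p, and 0.23 and 0.33 in the control, so both hsa-miR-205-5p arrays lay above the other 4. TKT read 8.44 and 8.47 with hsa-miR-205-5p, 8.19 and 8.20 with hsa-miR-214-3p, and 8.54 and 8.30 in the control. TALDO1 read 5.24 and 4.50 with hsa-miR-205-5p, 5.01 and 4.68 with hsa-miR-214-3p, and 5.50 and 4.90 in the control, and its groups overlapped. Their differences from the control lay between -0.34 and 0.74 with hsa-miR-205-5p and between -0.36 and 0.24 with hsa-miR-214-3p.

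The distance between arrays was taken over the members as well. The root mean square difference in log2 signal over the 29 members was 0.32 between the hsa-miR-205-5p arrays, 0.15 between the hsa-miR-214-3p arrays and 0.56 between the control arrays. It was 1.32 to 1.38 between the precursors, 1.02 to 1.31 from hsa-miR-205-5p to control arrays and 0.55 to 0.82 from hsa-miR-214-3p to control arrays. Over all kept probes the same distances were 0.99 to 1.04, 0.75 to 1.05 and 0.58 to 0.78. The lowest member distance to the control, 0.55 between hsa-miR-214-3p replicate 1 and control replicate 2, was below the distance between the 2 controls. Of the 9 members lower with hsa-miR-205-5p than with hsa-miR-214-3p, ALDOC, GAPDH, ENO1, ENO2, PKM and PGD were also called lower against the control, and SLC2A3, HK1 and PFKFB4 were not; both comparisons share the hsa-miR-205-5p arrays.

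For 7 members, 2 probes were kept, and they did not always give the same result. The 2 PFKFB2 probes carry different transcripts, and the dimmer read -0.59 and -1.74 with hsa-miR-205-5p, -0.60 and -0.98 with hsa-miR-214-3p, and -2.97 and -2.48 in the control. By that probe the difference with hsa-miR-214-3p was 1.93 ± 0.42 (SE; adjusted p = 0.0796, limma), where the brighter probe gave -1.44. The dimmer probe passed the filter only through the hsa-miR-214-3p arrays, where its mean was highest, and 1 array of each other group was not well above background, so its value is no test of direction. The dimmer PGAM1 probe read 4.69 and 4.63 with hsa-miR-205-5p, 6.23 and 6.25 with hsa-miR-214-3p, and 5.77 and 5.74 in the control. By that probe PGAM1 fell with hsa-miR-205-5p (-1.10 ± 0.15, adjusted p = 0.012) and lower than with hsa-miR-214-3p (-1.58 ± 0.15, adjusted p = 0.00401), where the brighter probe was not called. Both probes carry the accession of the same PGAM1 transcript.

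The dimmer LDHA probe read 2.65 and 2.26 with hsa-miR-205-5p, 6.22 and 6.25 with hsa-miR-214-3p, and 3.07 and 6.44 in the control. It thus repeated the wide gap between the control arrays and was lower with hsa-miR-205-5p than with hsa-miR-214-3p (-3.78 ± 1.04, adjusted p = 0.0432, limma). The dimmer LDHB probe, for another transcript, read 0.00 and -0.30 with hsa-miR-205-5p, 2.30 and 2.57 with hsa-miR-214-3p, and 0.42 and 2.70 in the control, unlike the brighter one, and was also called lower between the precursors (-2.59 ± 0.72, adjusted p = 0.044). The second probes of PFKP (-0.85, adjusted p = 0.0262), TPI1 (-0.38) and PFKFB3 (-0.01) were within 2-fold of the control with hsa-miR-205-5p. Several members, among them GAPDH, PGAM1, LDHA, LDHB, TPI1 and SLC2A3, have close relatives or processed copies in the genome, and whether a probe also reads those was not tested.

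**Figure D3:**
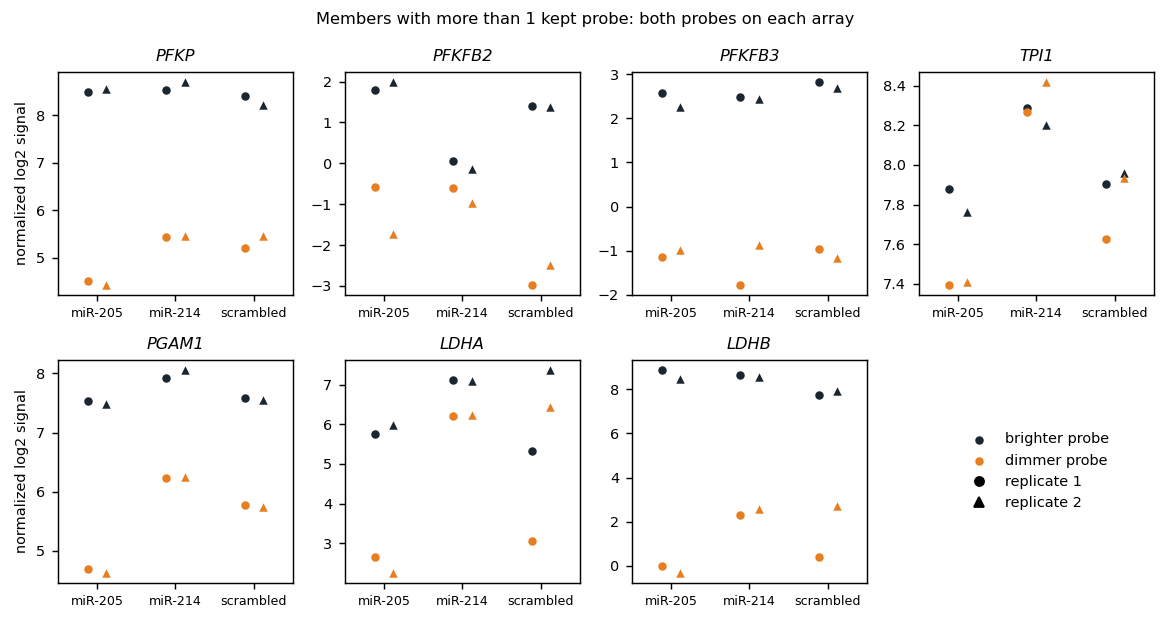
Normalized log2 signal of both kept probes (dark the brighter, orange the dimmer) on each array, for the 7 members with more than 1 kept probe; circles are replicate 1 and triangles replicate 2, and each panel has its own axis. The dimmer PFKFB2 probe has its highest mean with hsa-miR-214-3p, the only group through which it was kept, the dimmer PGAM1 probe lies at 4.69 and 4.63 with hsa-miR-205-5p against 5.77 and 5.74 in the control, and both LDHA probes split the 2 control arrays.

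The rest of carbohydrate metabolism was read from lists of other genes, and no list was tested as a whole. Of all genes tested, 7.98% were called lower and 4.78% higher with hsa-miR-205-5p against the control. The shares were 2.03% and 1.09% with hsa-miR-214-3p, and 11.3% and 9.18% between the precursors. Of 10 tested isoforms and transporters of the same steps, 1 was lower and 2 were higher with hsa-miR-205-5p: PDK4, a further pyruvate dehydrogenase kinase (-1.35), LDHD, a mitochondrial D-lactate dehydrogenase (1.47), and the transporter SLC2A8 (1.08). None was called with hsa-miR-214-3p. Between the precursors LDHD was higher (1.44) and ADPGK, an ADP-dependent glucokinase, lower (-1.24) with hsa-miR-205-5p. Of 10 genes for pyruvate entry into mitochondria, 1 was called lower, DLD, a subunit of pyruvate dehydrogenase, at least 1.41-fold lower with hsa-miR-205-5p than in the control because neither hsa-miR-205-5p array showed it above background. Between the precursors it was at least 1.22-fold lower. Its call rests on signals near background, and these bounds do not show a 2-fold change. MPC1, a pyruvate carrier subunit, was higher with hsa-miR-205-5p than with hsa-miR-214-3p (1.11), and 0 of these genes were called with hsa-miR-214-3p against the control.

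Of 21 tested genes on side branches of glucose phosphate, 2 were lower and 2 higher with hsa-miR-205-5p. Over all genes tested the shares were 7.98% lower and 4.78% higher. G6PC3, a glucose phosphatase, fell by 1.44 on the log2 scale and PYGB, a glycogen phosphorylase, fell by 1.06, while the gluconeogenic FBP1 rose by 1.44 and SHPK, the sedoheptulose kinase, rose by 1.08. None was called with hsa-miR-214-3p. Between the precursors G6PC3 was lower (-1.75), and GFPT1 of the hexosamine branch (1.29), GPD2 (1.18) and SHPK (1.11) were higher with hsa-miR-205-5p.

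Many members are known targets of hypoxia-inducible factor. Of all genes tested, 7.98% were called lower and 4.78% higher with hsa-miR-205-5p, and 2.03% and 1.09% with hsa-miR-214-3p. Of 15 tested hypoxia-inducible genes outside glycolysis, 0 were lower and 1 was higher with either precursor, LOX, a collagen cross-linking enzyme, by 1.13 with hsa-miR-205-5p and by 1.30 with hsa-miR-214-3p. Their median difference was 0.26 with hsa-miR-205-5p, beside -0.34 for the glycolysis and pentose phosphate members, a value that came to -0.045 without scrambled control replicate 1. VEGFA (1.76) and FAM162A (1.28) were higher and NDRG1 (-1.03) lower with hsa-miR-205-5p than with hsa-miR-214-3p. Of 7 tested regulators, MLXIPL, a carbohydrate-responsive transcription factor, was at least 1.54-fold lower with hsa-miR-205-5p than in the control and at least 1.97-fold lower than with hsa-miR-214-3p, bounds that also fall short of 2-fold, and TXNIP, a brake on glucose uptake, was higher with hsa-miR-205-5p than with hsa-miR-214-3p (1.59). HIF1A and MYC, which drive many of the members, differed from the control with hsa-miR-205-5p by 0.11 and 0.18 and were not called. These are transcript values and do not measure protein. A part of hypoxia-inducible factor or MYC in the changes of the members was not tested.

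**Figure D4:**
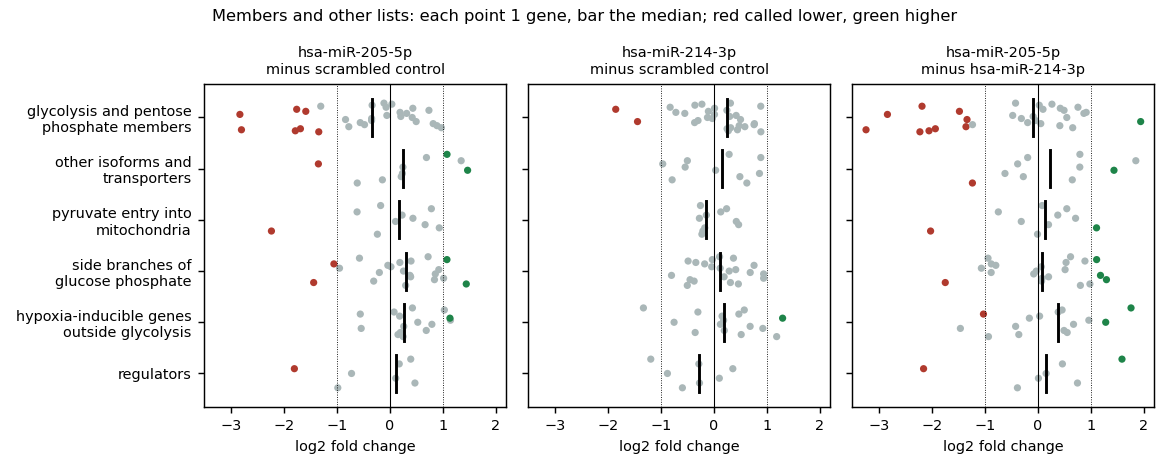
Log2 fold change of each tested gene (1 point per gene) in the members and the other lists, for the 3 comparisons. Black bars are medians, red and green points are genes called lower and higher, and dotted lines mark 2-fold. With hsa-miR-205-5p the members have the median of -0.34 and 7 of 29 genes called lower, and the hypoxia-inducible genes a median of 0.26 with 0 of 15 called lower. Of all genes tested, 7.98% were called lower, and the lists were not tested against each other.

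Since 7 members fell together, the stretch from 250 bases before to 50 bases after their RefSeq starts was read for the core letters of a hypoxia response element, ACGTG or GCGTG on either strand. The window closest to the start is shown for each, in transcript direction on GRCh38.p14, with the letters found in capitals (CACGT and CACGC are the same letters on the other strand).
GAPDH: ctctgcggggtcACGTGtcgcagaggagc
ENO1: ggagctgaggggGCGTGccccggaggcgg
ENO2: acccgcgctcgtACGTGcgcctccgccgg
PKM: gcacagcagctgCACGCgccgtggctccg
ALDOC: ccccggaggagtCACGTagctctgcgaca
PGD: ccgaaaagccggGCGTGagcggccgcagt
RPIA: cgcgcagcagggCACGCagactgtgtgcg
They lie at chr12:6535172-6535200 (plus), chr1:8878742-8878770 (minus), chr12:6914450-6914478 (plus), chr15:72231162-72231190 (minus), chr17:28576907-28576935 (minus), chr1:10399008-10399036 (plus) and chr2:88691604-88691632 (plus), in the order shown. Of the 29 tested members, 27 had a promoter in the table, some of them several. All 7 called genes, with 1 promoter each, held the letters, as did 15 of the 20 genes that were not called and 52.4% of all 27305 genes, counting a gene when any of its promoters did. Counted by promoter, they were in 23 of the 44 promoters of the members not called (52.3%) and in 48.4% of all 35116 promoters. PGAM1, PGLS, RPE, TKT and TALDO1 had 0 promoters with them. The E-box CACGTG, which contains ACGTG, was in 2 of the 7, GAPDH and ALDOC, in 3 of the 44 promoters of the members not called and in 7.26% of all promoters. Such matches are a description of the letters and not of binding.

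All 7 members that fell with hsa-miR-205-5p kept their direction under every alternative in which they were tested, and each of ENO1, GAPDH, PKM, PGD and RPIA was still called in 20 of 22, ENO2 in 19 of 22 and ALDOC in 17 of 21. RPIA was called with hsa-miR-214-3p in 13 of 22 alternatives and PFKFB2 in 10 of 22. Some alternatives could not remove a call: an unadjusted p and no limit on fold change only relaxed the rule. The 7 members lower with hsa-miR-205-5p had no second kept probe, so the second-probe rule left their calls as they were. Leaving out an array of the group not compared repeated the fit on only the arrays compared. Other tests and a block for the replicate number left fold changes, and so directions, unchanged. These counts thus do not measure independent checks. With the replicate number as a block, the 2 calls with hsa-miR-214-3p were lost and 0 genes passed (smallest adjusted p 0.0724 in limma; 2 members lower at an unadjusted p).

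**Figure D5:**
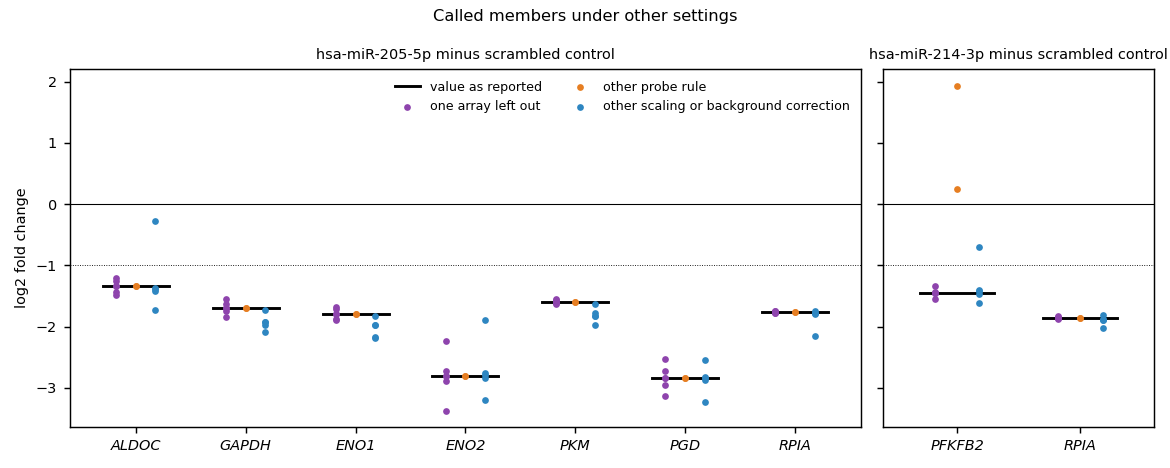
Log2 fold change against the scrambled control of the members called with hsa-miR-205-5p (left) and hsa-miR-214-3p (right): black bars the value as reported, purple points with one array left out, orange points with another rule for genes with several probes, blue points with other scaling or background correction. The dotted line marks 2-fold. ALDOC reaches -0.28 with normexp, and PFKFB2 lies at 0.25 with the mean of its probes and at 1.93 with its dimmer probe, which was kept only through the hsa-miR-214-3p arrays.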

How the data were processed

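Transcripts of MDA-MB-231 cells were read on 6 one-color arrays (2 per group, groups from the sample labels). The authors deposited the scanner output of Agilent Feature Extraction 11.0 (version from the submitters' processing notes), with an intensity per spot that is background subtracted and spatially detrended but not normalized between arrays. A log2 table of the same arrays, deposited by the authors, has columns that share one distribution and does not state its centring; it served as an alternative.

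Control and outlier spots (245 to 463 per array) were left out, spots of a probe averaged, log2 taken and the array's 75th percentile subtracted. Kept probes were those that were, in 1 group or more, well above background on each of its arrays (18468 of 50599, 36 of 40 member probes). Probes were named through their accession in the RefSeq table of GRCh38.p14, which matched 83.3% of the kept probes; the design build differs, and RefSeq gave only names and printed sequences. A gene is its kept probe of highest mean signal. limma 3.58.1 (R 4.3.3, data.table version 1.17.8) was fitted over all 6 arrays, since 2 against 2 alone leaves little to estimate the spread, with 3 residual and 2.47 prior degrees of freedom and Benjamini-Hochberg adjustment; it was tested on simulated data. The number of arrays limits the precision. Where a group was below background on both arrays, "at least N-fold" sets the brighter mean against, per array, the higher of the probe's signal and the lowest signal well above background. Plots were made with matplotlib 3.10.9.

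The members and lists were chosen with earlier results of these data known. Members called in any comparison and those of the same step are given by array (GPI, PGK1, PGAM1, LDHA and LDHB too, chosen after their values were seen), the rest by range; genes of other lists are named when called. Alternatives were other background correction, scaling, filters, arrays, tests and probe rules; normexp (offset 50) was run on median signals. The labels do not say whether replicate numbers pair samples. Deviations between replicates correlated weakly between groups (0.11, 0.01 and -0.05), which does not exclude pairing. All arrays lie on 1 slide, so no slide block was fitted. The authors' target predictions and pathway networks were not used here.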

Additional observations from a re-analysis of the deposited data

How the results depend on the processing

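Counts of genes called (1528, 374 and 2451 with hsa-miR-205-5p against control, hsa-miR-214-3p against control and between the precursors) and of members depended on several settings, and the causes were not tested. With normexp, 750, 246 and 1062 genes were called, 1 member was lower with hsa-miR-214-3p and its member median was -0.011. Without a filter on dim probes 317, 0 and 1245 genes were called, and 0 members with hsa-miR-214-3p. On only the 4 arrays compared, 617 genes were called with hsa-miR-205-5p, and 0 genes and 0 members with hsa-miR-214-3p. With the replicate number as a block, 0 genes and 0 members were called with hsa-miR-214-3p (823 genes at an unadjusted p), 1339 and 2378 genes in the other comparisons, and no other call of a member changed. The methods' t-test after adjustment called 0, 0 and 1604 genes and 0 members with either precursor against control, and 1140, 549 and 2393 genes before it. At an unadjusted p 814 genes were called with hsa-miR-214-3p. Without a limit on fold change 2521 and 4054 genes were called with hsa-miR-205-5p against control and between the precursors, and 3 and 4 members were higher. The mean of a gene's probes gave 1 member higher with hsa-miR-205-5p, 1 lower with hsa-miR-214-3p and 0 higher between the precursors, and the second probe gave 1 lower with hsa-miR-214-3p and 0 higher between the precursors. PFKFB2 reversed with hsa-miR-214-3p, to 0.25 by the mean of its probes and 1.93 by its second probe, and between the precursors to -0.37 by its second probe; that probe was kept only through the hsa-miR-214-3p arrays, where its mean was highest, so these values do not test its direction.

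Scaling to the median shifted the median of all genes by -0.39, -0.17 and -0.22, and the share of calls that were lower from 62.6%, 65.0% and 55.2% to 89.9%, 86.3% and 73.8% (82.1% and 85.0% with normexp for the comparisons with control). The member medians then were -0.73, 0.079 and -0.32, and the last was -0.29 with quantile normalization, -0.27 in the authors' table, -0.31 by the mean of probes and -0.37 by the second probe. Leaving out 1 array gave 0 to 2465 genes, 0 to 9 members lower, 0 to 1 higher and a member median of -0.36 to -0.045 with hsa-miR-205-5p; 0 to 1150 genes, 0 to 2 members lower, 0 to 2 higher and 0.10 to 0.28 with hsa-miR-214-3p; and 325 to 2701 genes, 4 to 10 members lower and -0.20 to -0.030 between the precursors. Without hsa-miR-214-3p replicate 2 the 4 were ALDOC, ENO1, GAPDH and PGD. Members that were not called changed sign in 28 of 482, 18 of 591 and 20 of 417 member and setting pairs. With 2 arrays per group precision is limited, and the values of members near background (ALDOC, SLC2A3, PDK1) rest in part on signals not well above it. The largest SE of a tested member against the control was 0.64, that of LDHA.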
